A study of Mus musculus with 6 samples.

Results

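Genes of plasminogen activation and of the cell-surface control of coagulation were compared between lamin A/C knockdown and control E0771 cells, a mouse breast carcinoma line. The set holds 9 genes chosen by name from the pathway after the fold changes of this same comparison had been seen, and it includes genes that moved and genes that did not. Of these 9 genes, 6 matched a symbol among the 10520 genes of the count table (Plaur, Plat, Procr, F3, Tfpi and Serpinb6a), and all 6 passed the filter on low counts that left 8969 genes. Serpine2, Plau and Thbd were not matched, and their expression was not analysed here. Every gene of the count table reached a count of at least 6 in some library. Why a gene was not matched, here or below, was not tested. Because the measured contrast was known when the genes were chosen, their levels and fold changes below are a description without p-values.

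Plasmin is a serine protease that dissolves fibrin and degrades extracellular matrix, and it is made from plasminogen by the urokinase (Plau) and tissue-type (Plat) activators. Urokinase is held at the cell surface by its receptor, uPAR (Plaur), and both activators are inhibited by serpins, a family of protease inhibitors. Coagulation starts when tissue factor (F3) on a cell surface binds factor VII, a step inhibited by tissue factor pathway inhibitor (Tfpi), while thrombomodulin (Thbd) and the endothelial protein C receptor (Procr) help thrombin to activate the anticoagulant protein C. In carcinoma cells these proteins are studied for their part in invasion and in the contact of circulating tumor cells with blood.

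RNA of both groups was sequenced with MARS-seq, which captures the 3' ends of polyadenylated transcripts and tags every captured molecule with a unique molecular identifier (UMI). The shControl cells, of C57BL/6 origin like the knockdown cells, carried the empty lentiviral pLKO.5-puro vector, and the shLmna cells carried a lamin A/C shRNA in a lentiviral vector. Cells of both groups were selected in puromycin and expanded without a stated cloning step, and the knockdown libraries carried 1 shRNA construct, named shRNA4 in their titles. Each group had 3 libraries, whose labels do not say whether they came from separate cultures, so the spread between them may be partly technical. The titles name the same plate and number the libraries of each group consecutively, without saying what the numbers stand for. Any effect tied to this order and the effect of knockdown cannot be told apart.

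The libraries held between 1846208 and 3242051 UMIs. Levels are given in CPM, UMI counts brought to the same library total, after TMM scaling, which corrects those totals for composition. Since 1 molecule gives at most 1 UMI at its 3' end they were not divided by transcript length and are compared between groups, not between genes. Lmna, the targeted gene, had 2066, 2794 and 1764 UMIs in shControl and 1035, 1023 and 713 in shLmna, and fell from 873 ± 62.8 to 381 ± 6.34 CPM (SD, n = 3 each), a log2 fold change of -1.20 ± 0.13 (standard error, adjusted p = 3.5e-05, edgeR quasi-likelihood, Benjamini-Hochberg over all tested genes). Of 10 epithelial markers 4 were matched, among them Krt8 at 276 ± 27.4 and 291 ± 15.4 CPM in shControl and shLmna (SD, n = 3 each), and Epcam at 13.7 ± 0.627 and 7.08 ± 4.07 (adjusted p = 0.0909, edgeR), with a summed level of 266 to 323 and 288 to 316. Krt8 made up most of this sum. Epcam had a log2 fold change of -0.9, and its groups did not overlap. Krt18 had a log2 fold change of -0.53 (adjusted p = 0.453, edgeR), and Krt8 one of 0.07 (adjusted p = 0.776, edgeR). Krt7 was too low to be tested, at 2.62 ± 1.51 and 3.75 ± 1.4 CPM in shControl and shLmna (SD, n = 3 each). The adhesion molecule Cdh1 was not matched. In these bulk libraries fewer cells that make an RNA and less of it per cell cannot be told apart.

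Procr and Plaur were the 2 genes of the set whose libraries did not overlap between the groups, and both were lower in lamin A/C knockdown cells. Of all tested genes, 32.5% did not overlap. Procr, the endothelial protein C receptor (chromosome 2 of GRCm38, 155751117 to 155755471, forward strand), had 470, 541 and 363 UMIs in replicates 1, 2 and 3 of shControl and 145, 143 and 99 UMIs in the shLmna replicates. After scaling these were 184, 169 and 193 against 54.3, 52.5 and 52.6 CPM. Every shLmna library lay far below every shControl library, and the shLmna libraries differed little among themselves. The mean level was 182 ± 11.9 in shControl and 53.2 ± 1.02 in shLmna (SD, n = 3 each), 3.42-fold lower, and the log2 fold change was -1.77 with a standard error of 0.15. The SD between libraries was 6.53% of the mean in shControl and 1.93% in shLmna, beside a counting error of 5.84% at the gene's mean of 294 UMIs. The shLmna libraries held fewer UMIs than this mean, so their counting error is larger. Their spread lay below it and does not measure how precisely the level is known.

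Plaur, the urokinase receptor (chromosome 7, 24462484 to 24475968, forward strand), had 831, 978 and 545 UMIs in the control libraries and 465, 413 and 332 in the shLmna replicates. The scaled levels were 326, 306 and 289 against 174, 152 and 177 CPM. The groups did not overlap, and the lowest shControl library stood well above the highest shLmna library. The mean was 307 ± 18.4 in shControl and 167 ± 13.8 in shLmna (SD, n = 3 each), 1.83-fold lower, with a log2 fold change of -0.88 and a standard error of 0.14. The difference was thus smaller on the log2 scale for Plaur than for Procr.

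**Figure D1:**
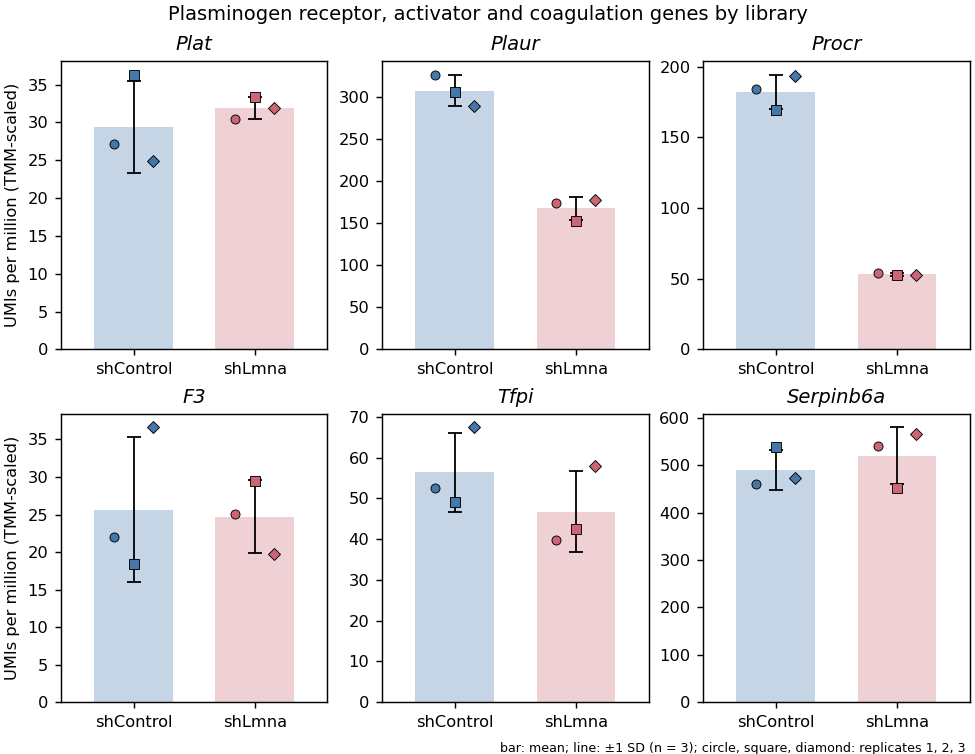
TMM-scaled CPM (vertical axes, from 0, each panel on its own scale) of the 6 measured genes in 3 shControl and 3 shLmna libraries, with the mean as a bar, the SD as a line and each replicate as a point. The groups are apart for Plaur (289 and above against 177 and below) and Procr (169 and above against 54.3 and below) and overlap for Plat, F3, Tfpi and Serpinb6a.

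The sequences before the starts of Plaur, Procr and F3 are shown because each holds an AP-1 motif, a choice made after the motif search. AP-1 factors (Fos and Jun proteins) bind TGANTCA, and this motif was searched on both strands in the 250 bases before each RefSeq gene start (GRCm38.p6), where 6.75% of 32851 windows held it. Windows were found for 6 of the 9 genes, and those of Plaur, Procr and F3 held the motif, while those of Serpine2, Tfpi and Serpinb6a did not. Plat, Plau and Thbd had no entry. The motif begins 69 bases before the RefSeq start of Plaur, 154 before that of Procr, and 146 and 135 before that of F3. The libraries of F3 overlapped between the groups. For Procr the RefSeq window ends at 155751216, past the GENCODE start at 155751117. Its distance of 154 is thus not counted from the end of the sequence printed below. The windows of Plaur (chr7:24462233-24462482, forward strand), Procr (chr2:155750967-155751116, forward strand, the part of the window before the GENCODE gene) and F3 (chr3:121723287-121723536, forward strand) are printed 5' to 3' with the motif in capitals.
Plaur: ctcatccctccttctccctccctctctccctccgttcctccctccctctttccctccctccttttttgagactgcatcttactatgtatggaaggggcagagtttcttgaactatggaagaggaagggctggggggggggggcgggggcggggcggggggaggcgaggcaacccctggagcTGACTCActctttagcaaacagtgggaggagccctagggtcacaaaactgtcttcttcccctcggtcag
Procr: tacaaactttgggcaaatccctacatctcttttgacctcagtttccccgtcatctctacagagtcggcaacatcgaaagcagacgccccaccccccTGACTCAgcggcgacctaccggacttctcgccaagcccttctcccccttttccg
F3: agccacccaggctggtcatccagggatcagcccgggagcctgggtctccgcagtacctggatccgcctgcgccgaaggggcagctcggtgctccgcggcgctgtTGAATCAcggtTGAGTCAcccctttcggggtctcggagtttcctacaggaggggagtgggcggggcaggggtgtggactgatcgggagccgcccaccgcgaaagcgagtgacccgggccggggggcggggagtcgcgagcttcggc

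Further motifs were searched in the same windows on both strands. The GC box GGGCGG, which Sp1-like factors bind and which 32.7% of windows held, occurred 6 times before Serpine2, 3 times each before Plaur and F3, 2 times in 1 of the windows of Serpinb6a and 1 time in each window of Tfpi, and was not found before Procr. The TATA box TATAAA (12.4% of windows) occurred in 1 of the windows of Tfpi, and the TEAD motif GGAATG (12.6%) in 1 of the windows of Serpinb6a. These letter matches are a description of the windows, and no binding was measured.

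The libraries of the plasminogen activator overlapped between the groups. Plat, tissue-type plasminogen activator (chromosome 8, 22757727 to 22782844, forward strand), had 69, 116 and 47 UMIs in the control libraries and 81, 91 and 60 in the shLmna replicates. The scaled levels were 27.1, 36.3 and 24.9 against 30.4, 33.4 and 31.9 CPM. All shLmna libraries lay inside the range of the shControl libraries, which were spread more widely (20.5% of the mean against 4.79%). The means were 29.4 ± 6.03 and 31.9 ± 1.53 (SD, n = 3 each), and the log2 fold change was 0.10 with a standard error of 0.20 and a 95% interval from -0.33 to 0.53.

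Tissue factor and its inhibitor also overlapped between the groups. F3, the initiator of coagulation (chromosome 3, 121723537 to 121735048, forward strand), had 56, 59 and 69 UMIs in the control libraries and 67, 80 and 37 in the shLmna replicates, or 22.0, 18.4 and 36.6 against 25.1, 29.4 and 19.7 CPM. The highest and the lowest of the 6 libraries were both shControl libraries. The means were 25.7 ± 9.63 and 24.7 ± 4.86 (SD, n = 3 each), and the spread in shControl, 37.5% of the mean, exceeded the counting error of 12.8% at 61.3 UMIs. The log2 fold change was -0.0043 with a standard error of 0.26, and its 95% interval ran from -0.57 to 0.56. A change of F3 of either sign within this interval is compatible with these libraries. Its log2 fold change ran from -0.22 without shControl replicate 2 to 0.30 without shControl replicate 3.

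Tfpi, which inhibits the complex of tissue factor and factor VII (chromosome 2, 84432855 to 84476775, reverse strand), had 134, 157 and 127 UMIs in the control libraries and 106, 116 and 109 in the shLmna replicates. Scaled, these were 52.6, 49.1 and 67.4 against 39.7, 42.6 and 58.0 CPM. Replicate 3 was the highest library of each group, and shLmna replicate 3 lay above both of the lower shControl libraries. The means were 56.3 ± 9.72 and 46.8 ± 9.81 (SD, n = 3 each), with a log2 fold change of -0.27, a standard error of 0.19 and a 95% interval from -0.68 to 0.14. The 3' end of Tfpi is AT-rich, with a GC content of 35.4%, beside medians of 44.3% for the genes called higher in shLmna, 49.6% for those called lower and 47.1% for the rest. With a correction for this GC content the log2 fold change of Tfpi was -0.69 and passed an adjusted p of 0.05, as it did under 2 of 17 alternatives, both with this correction, and without shControl replicate 3 or shLmna replicate 3 it was -0.14 or -0.44.

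Serpinb6a, an intracellular clade B serpin that inhibits serine proteases (chromosome 13, 33917918 to 34002794, reverse strand), had 1173, 1725 and 893 UMIs in the control libraries and 1441, 1231 and 1066 in the shLmna replicates, or 460, 539 and 474 against 540, 452 and 567 CPM. The groups overlapped, with an shLmna library as both the lowest and the highest of the 6. The means were 491 ± 42.4 and 520 ± 60.1 (SD, n = 3 each), and the log2 fold change was 0.08 with a standard error of 0.14 and a 95% interval from -0.22 to 0.38. Of the 50-base stretches in its last 1000 bases, 3.0% also occur in Serpinb6b or Serpinb6c, close copies of the gene, so some of its UMIs are uncertain in origin. No such stretch was found for the other genes of the set, and no exon of another annotated gene overlapped the counted end of any of the 6.

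Of the 6 genes, 2 (Procr and Plaur) passed an adjusted p of 0.05 as lower and 0 as higher in shLmna, beside 5.78% of all tested genes called lower, 7.96% called higher and 13.7% in either direction. With the GC correction, chosen after the data were seen, 3 passed as lower with or without the replicate block, the added gene being Tfpi. By the study's criteria, which also ask for an absolute log2 fold change above 1 and a mean normalized count above 5, Procr alone was called, beside 1.74% of tested genes lower and 3.97% higher. The groups did not overlap for 2 of the 6, against 32.5% of all tested genes. The median log2 fold change was -0.14 over the 6 genes and 0.00 over all tested genes. These counts follow from how the genes were chosen and carry no test.

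The authors' batch-corrected log2 values were read beside the counts. Procr lay at 8.86, 8.77 and 8.85 in the shControl replicates and at 7.74, 7.77 and 7.75 in the shLmna replicates, and Plaur at 9.61, 9.58 and 9.52 against 8.97, 8.92 and 9.03. The groups of Tfpi, which overlapped in the counts, were apart in these values, at 7.62, 7.57 and 7.66 against 7.43, 7.46 and 7.55. Those of Plat, F3 and Serpinb6a overlapped. The batch variable of the correction is not stated in the sources used here, and for Procr and Plaur the gap between the groups in these values was smaller than the log2 fold change of the counts.

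The other genes of the pathway were taken from whole lists by role, written with earlier results of these data known, and were tested with edgeR over all genes. Of 70 genes in 4 lists, 30 were matched and 24 were tested, of which 5 were higher and 1 was lower in shLmna at an adjusted p below 0.05, beside 7.96% and 5.78% of all tested genes. The median log2 fold change of the 24 was 0.21, beside 0.00 over all tested genes. In the plasminogen system, 8 of 23 genes were tested. The protease St14 fell, the receptors Lrp1 and Plgrkt rose, and 5 genes did not pass.

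St14, matriptase, a membrane-bound protease that can activate pro-urokinase, fell from 35.9 ± 5.62 to 14.5 ± 1.57 CPM (SD, n = 3 each), a log2 fold change of -1.30 (standard error 0.21, adjusted p = 0.00108, edgeR). Its 6 libraries held 89, 134 and 58 UMIs in shControl and 40, 43 and 24 in shLmna. The scaled groups were apart, with at least 30.8 CPM in shControl and at most 15.8 in shLmna.

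Lrp1, the endocytic receptor that clears urokinase and tissue-type activator bound to their inhibitors, had 126, 153 and 89 UMIs in the control libraries and 240, 252 and 199 in the shLmna replicates, and rose from 48.2 ± 1.13 to 96.1 ± 8.52 CPM (SD, n = 3 each), a log2 fold change of 0.99 (standard error 0.15, adjusted p = 0.00065, edgeR). Plgrkt, a plasminogen receptor of the plasma membrane, had 33.3, 33.5 and 44.0 against 50.2, 55.4 and 59.0 CPM. Its log2 fold change was 0.58 (standard error 0.18, adjusted p = 0.0431, edgeR), and this call is weak. It passed under 9 of 17 alternatives, with adjusted p-values from 0.0138 to 0.193, and was lost when any library but shControl replicate 3 was left out. Anxa2 and S100a10, which together form a plasminogen-binding complex, had log2 fold changes of 0.22 ± 0.17 and 0.32 ± 0.18 (standard error, adjusted p = 0.423 and 0.259, edgeR).

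**Figure D2:**
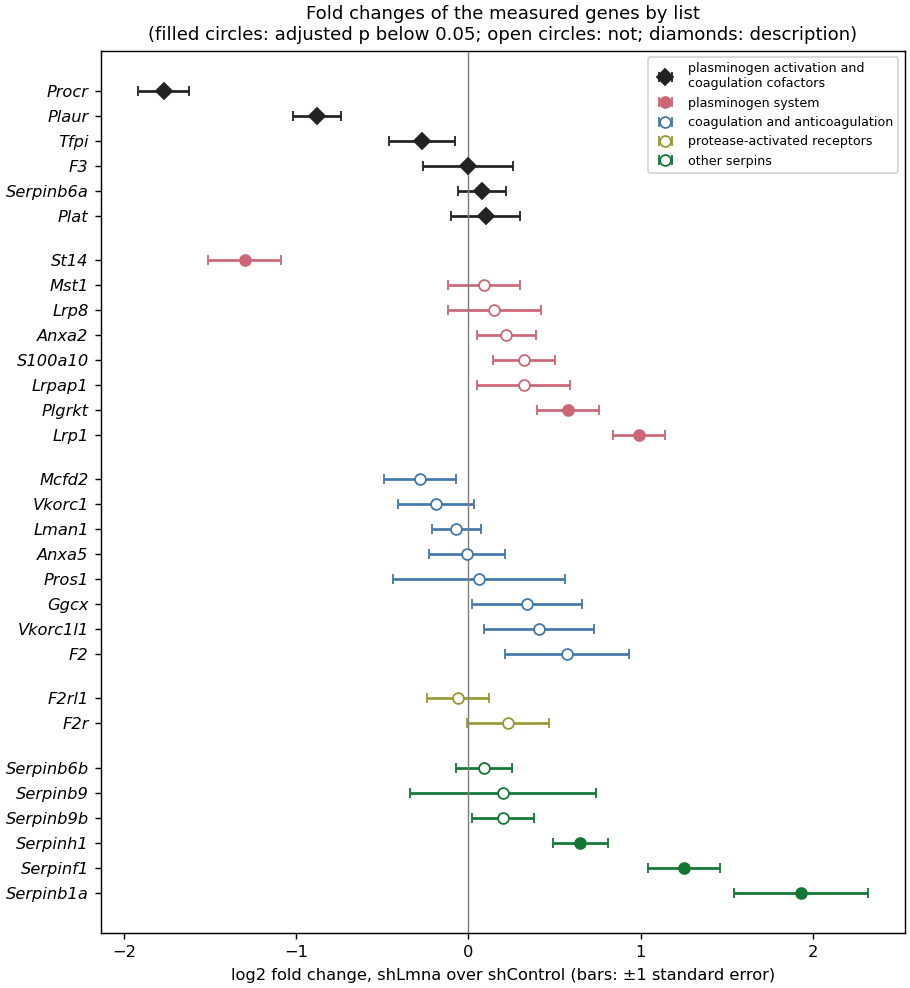
Log2 fold change of shLmna over shControl (horizontal axis, bars of 1 standard error) for the 6 genes of the set (diamonds) and 24 other tested genes of 4 pathway lists (circles, filled where the adjusted p was below 0.05). Procr (-1.77), St14 (-1.30) and Plaur (-0.88) lie to the left, and Serpinb1a (1.93) and Serpinf1 (1.25) lie farthest to the right.

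**Figure D3:**
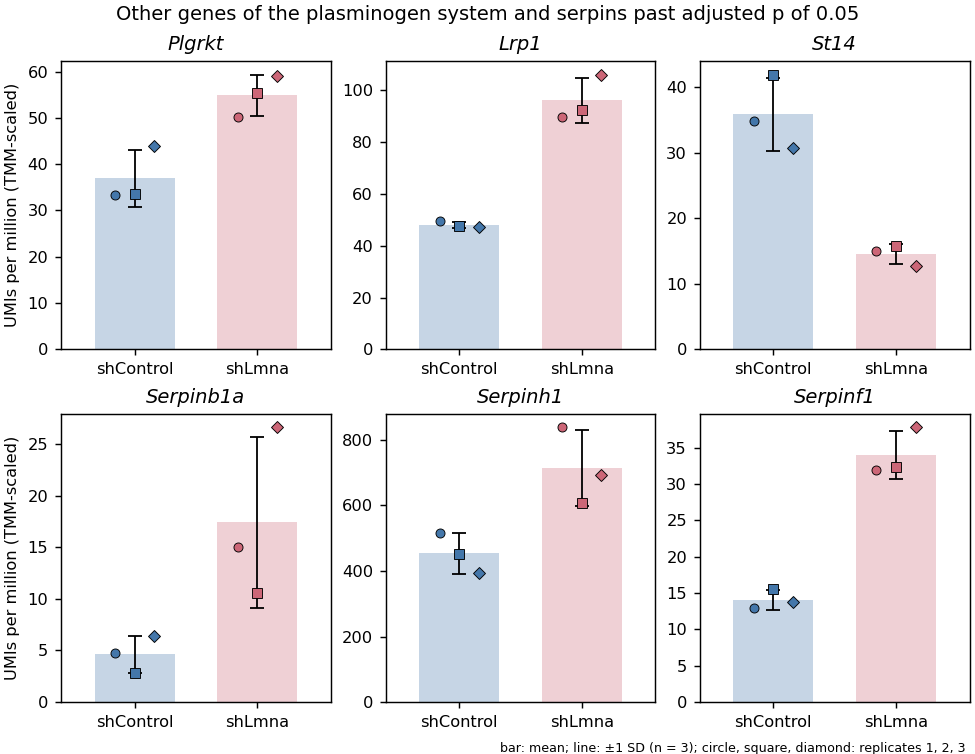
TMM-scaled CPM (vertical axes, from 0, each panel on its own scale) of the 6 pathway genes past an adjusted p of 0.05, in 3 shControl and 3 shLmna libraries, with the mean as a bar, the SD as a line and each replicate as a point. In all 6 panels the groups do not overlap, and only St14 is lower in shLmna.

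Among coagulation and anticoagulation genes, 10 of 29 were matched, 8 were tested and 0 passed in either direction at an adjusted p below 0.05 (edgeR), with 0 at an unadjusted p below 0.05 and 0 called by DESeq2 or limma-voom. The genes with the most UMIs were Anxa5, which binds phosphatidylserine (527 ± 167 and 523 ± 149 CPM, SD, n = 3 each), and Lman1 and Mcfd2, which together carry factors V and VIII out of the endoplasmic reticulum. The log2 fold changes of Anxa5, Lman1 and Mcfd2 were -0.0073 ± 0.22, -0.07 ± 0.14 and -0.28 ± 0.21 (standard error). Of 4 protease-activated receptors, F2r and F2rl1 were tested, and neither passed, with log2 fold changes of 0.23 ± 0.24 and -0.06 ± 0.18 (standard error, adjusted p = 0.563 and 0.862, edgeR).

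Of 14 other serpins, 6 were tested, of which 3 rose and 0 fell, beside 7.96% and 5.78% of all tested genes. Serpinf1, which encodes the secreted factor PEDF and does not inhibit proteases, rose from 14.1 ± 1.38 to 34.0 ± 3.28 CPM (SD, n = 3 each), a log2 fold change of 1.25 (standard error 0.21, adjusted p = 0.0012, edgeR). Serpinb1a, an inhibitor of neutrophil elastase, had 12, 9 and 12 UMIs in shControl and 40, 29 and 50 in shLmna, a log2 fold change of 1.93 (standard error 0.39, adjusted p = 0.00497, edgeR). This adjusted p became 0.0563 without shControl replicate 2. Serpinh1, the collagen chaperone HSP47, which is also no inhibitor, rose from 454 ± 61.3 to 713 ± 116 CPM (SD, n = 3 each), a log2 fold change of 0.65 (standard error 0.16, adjusted p = 0.0126, edgeR). This adjusted p became 0.0736 without shControl replicate 2 and 0.0702 without shLmna replicate 1. Serpinb6b, which like Serpinb6c holds some 50-base stretches of the end of Serpinb6a, had a log2 fold change of 0.09 ± 0.16 (standard error).

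**Figure D4:**
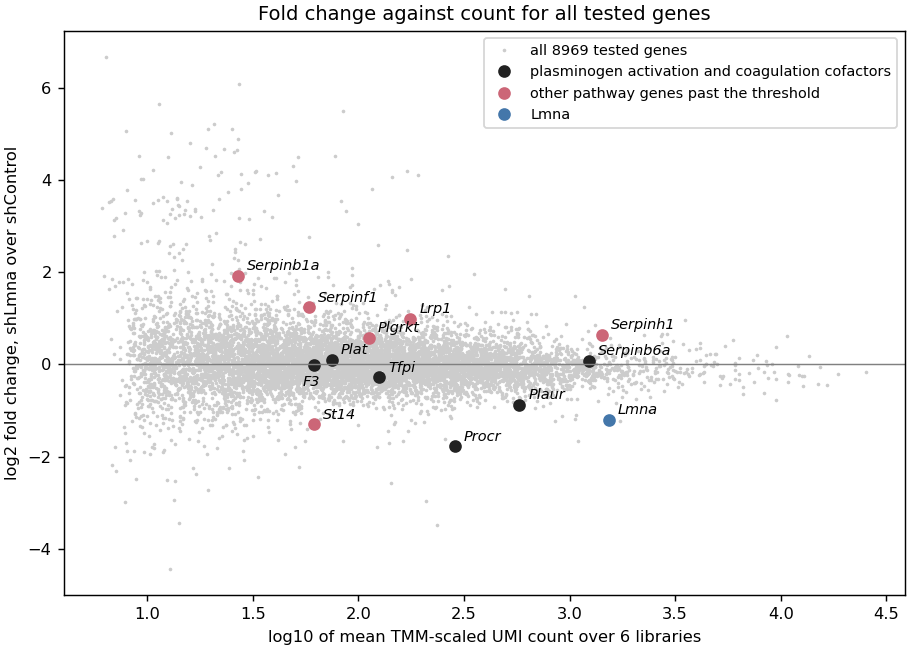
Log2 fold change (vertical axis) against log10 of the mean TMM-scaled UMI count over 6 libraries (horizontal axis) for 8969 tested genes (grey), with the 6 genes of the set, 6 pathway genes and Lmna named. Procr (-1.77) lies near the lower edge of the genes with like counts, and Plat, F3, Tfpi and Serpinb6a lie within the cloud.

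Procr, Thbd and Tfpi are known from endothelium, and markers of endothelial, blood and fibroblast cells were read in the same libraries. Of 12 endothelial markers, 3 were matched (Egfl7, Pecam1 and Esam), with a summed level of 45.1 to 57.3 CPM in shControl and 49.5 to 57.4 in shLmna. Egfl7 made up most of this sum, at 44.3 ± 5.29 CPM in shControl and 51.3 ± 3.4 in shLmna (SD, n = 3 each). Esam, too low to be tested, had 12, 16 and 5 UMIs in shControl and 3, 5 and 2 in shLmna, or 4.12 ± 1.28 and 1.34 ± 0.429 CPM, and its groups did not overlap, in the same direction as Procr. Pecam1 had at most 7 UMIs in any library, and Cdh5, Kdr and Tek were not matched. Of 6 platelet and megakaryocyte markers, 3 were matched, with a summed level of 40.9 to 50.6 in shControl and 27.7 to 36.7 in shLmna. Itga2b and Itgb3, integrin subunits, were lower (log2 fold changes of -1.04 and -0.79, adjusted p = 0.0423 and 0.0208, edgeR), Ppbp was higher (1.64, adjusted p = 0.0202, edgeR), and Pf4, Gp9 and Gp1bb were not matched. The calls of Ppbp and Itga2b rest on few UMIs. Ppbp had 4, 6 and 5 in shControl and 17, 12 and 16 in shLmna, and Itga2b had 25, 26 and 16 against 11, 12 and 8. Of 10 leukocyte markers, Cd68 and Lyz2 were matched, with a summed level of 15.3 to 17.3 in shControl and 18.4 to 24.4 in shLmna. Lyz2 was higher (log2 fold change of 1.28, adjusted p = 0.011, edgeR), with only 10, 23 and 13 UMIs in shControl and 42, 35 and 29 in shLmna. Cd68 was at 10.2 ± 2.78 and 6.48 ± 1.85 CPM (log2 fold change of -0.62, adjusted p = 0.234, edgeR), and Ptprc was not matched. Of 8 fibroblast markers, 4 were matched, with a summed level of 18.6 to 18.8 in shControl and 27.2 to 30.8 in shLmna, and Pdgfrb was higher (0.74, adjusted p = 0.0457, edgeR). The part of these markers in the levels of Procr and Plaur was not tested.

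**Figure D5:**
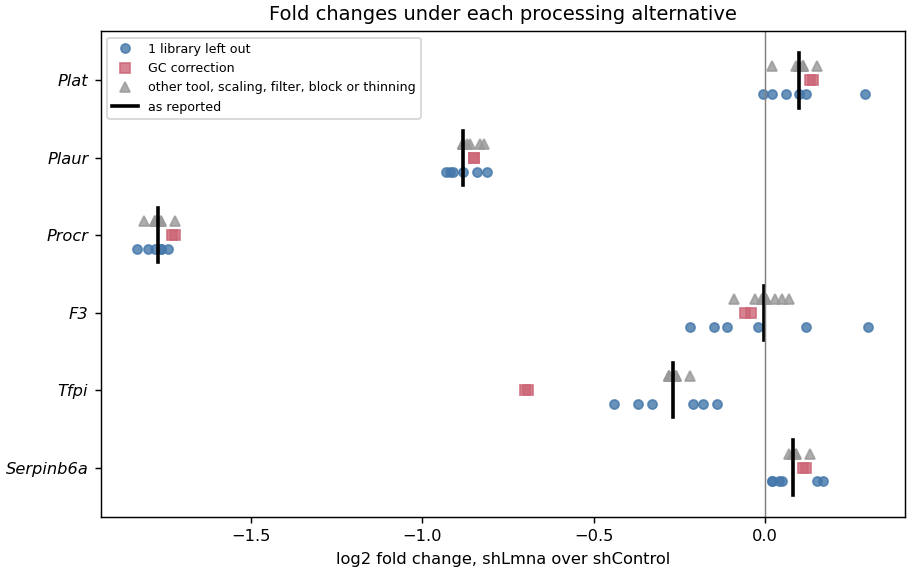
Log2 fold change of shLmna over shControl (horizontal axis) of the 6 genes as reported (black line) and under each processing alternative (points: circles for 1 library left out, squares for the GC correction, triangles for another tool, scaling, filter, replicate block or thinning). Procr stays between -1.83 and -1.72 and Plaur between -0.93 and -0.81, the points of F3 lie on both sides of 0, and those of Tfpi reach -0.70 with the GC correction.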

How the data were processed

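Unique molecular identifier (UMI) counts per gene were deposited for 6 libraries, and the authors made them with Cutadapt, STAR 2.4.2a (mm10) and a modified HTSeq-count, over the last 1000 bases of a gene and 100 bases beyond. The strand setting is not given in the sources used here. The authors also deposited log2 values corrected with ComBat, and a DESeq2 table of means, fold changes, p-values and adjusted p-values, of which no value was used.

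Counts were filtered (filterByExpr, minimum count 10), scaled by TMM and tested with edgeR 4.0.16 (quasi-likelihood, Benjamini-Hochberg over 8969 genes, threshold 0.05) in R 4.3.3, after the steps were tested on simulated data. Standard errors were the absolute log2 fold change over the square root of F. The members and lists were chosen with earlier results of these data known. Named were all 9 genes, Lmna, and of each pathway list the called genes or the 3 with most counts, with Anxa2, S100a10 and Serpinb6b added after their values were seen. A gene of the pathway lists is not reported here and is left out of the list counts. Alternatives used DESeq2 1.42.0, limma 3.58.1, other scalings and filters, thinning, a replicate block, each library left out and, chosen after seeing the data, a GC correction. An exact permutation of 3 against 3 libraries cannot go below p = 0.1. P-values weigh the difference between the groups against the spread between these libraries, which may be partly technical.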

Additional observations from a re-analysis of the deposited data

How the results depend on the processing

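The log2 fold changes of Procr and Plaur kept their direction under all 17 alternatives, as did St14, Lrp1 and Serpinf1 with their calls. The genes called across the table were 1232, against 779 with a mean count of at least 50 and 540 to 1580 with each library left out (lowest without shControl replicate 2, highest without shControl replicate 3). By the study's criteria 512 were called, against 158 with a mean count of at least 50. Of the pathway genes 5 were higher, and 2 to 5 with each library left out (2 without shControl replicate 2, 3 without shLmna replicate 1). Tfpi was at -0.69 with the GC correction and -0.70 with the GC correction and the replicate block, both chosen after the data were seen. The share of called genes that were higher was 58.0%, and 48.4% and 47.5% under these corrections. The cause of these differences was not tested. Libraries of the same number deviated from their group means with correlations of 0.352, -0.115 and 0.00519. These were not set against libraries of unlike number, so they do not settle whether the numbers pair the samples. The main fit took no pairing, and a replicate block gave 1350 called genes. At the mean UMI counts of F3 and Plat the counting error was 12.8% and 11.4%, and the spread between shControl libraries was 37.5% and 20.5% of the mean.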
